A study of Mus musculus with 16 samples.

Results

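Astrocyte marker genes are 31 genes used as markers of resting or reactive astrocytes, some of which, such as Vim and Cd44, other cells also make. The list was chosen with earlier results of these data known. Its genes were found on the arrays through the RefSeq transcript given for each probe. The arrays held 48 probes for them, and 30 of the 31 genes passed the filter on dim probes and were tested, among 13458 named genes tested in all. The 23 homeostatic members are genes of resting astrocytes, and the 8 reactive members, with Gfap and Vim among them, are known to rise when astrocytes respond to injury or inflammation. RNA of the hippocampus was measured on 16 single-colour Agilent arrays, 4 in each of the groups SAM/P-8 CCH, SAM/P-8 control, SAM/R-1 CCH and SAM/R-1 control. SAM mice, the senescence-accelerated mouse, descend from AKR/J stock, and SAM/P-8 and SAM/R-1 are known as a senescence-prone and a senescence-resistant line. All mice were male, started at 8 weeks of age and ate CE-2 rodent diet for 8 weeks, with 0.1% CCH (coral calcium hydride) in the CCH groups and none in the control groups. The labels do not say whether the arrays of a group came from separate animals, so the p-values measure the spread between these arrays, which may be technical. No slide held more than 1 group, so in every comparison an effect of the slide and one of the group cannot be told apart.

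Astrocytes take up glutamate and potassium at synapses, hold water channels on their end-feet along blood vessels, are joined to one another by gap junctions, and secrete lipoproteins and matrix proteins. In the hippocampus they surround the synapses of the excitatory circuit. Reactive astrocytes thicken their intermediate filaments and switch on acute phase, complement and cytokine receptor genes, in part through the gp130 receptor and the transcription factor STAT3.

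A level below is the log2 signal of a probe minus the 75th percentile of its array, so a level of 0 is as bright as that percentile. A difference is on the log2 scale and stands with its SE from limma, from n = 4 arrays in each group, and adjusted p is over all probes tested, with a threshold of 0.05. Each gene is represented by its brightest tested probe unless another is named. In whole tissue, fewer cells of a type and less RNA per cell cannot be told apart. All 30 tested members were well above background on all 16 arrays. Within a group the SD was smallest for Cst3, at 0.0662, and largest for Cd44, at 0.268.

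Some arrays stood apart in markers of other tissue. Replicates of a group correlated between 0.987 and 0.997 over the tested probes with a value on every array. SAM/P-8 CCH replicate 4 had a summed linear level of 211.6 over 12 striatal markers, against a median of 9.94 in its group, and it had the highest oligodendrocyte sum, 195.1. SAM/P-8 control replicate 1 had the highest meningeal sum, 91.45, against a group median of 44.2. SAM/P-8 CCH replicate 1 had 82.26 and SAM/P-8 CCH replicate 4 had 76.34, against a median of 65.32 in that group. Choroid plexus and ependymal markers had summed levels from 3.71 to 7.95 on 5 arrays, at least 1 in every group, and from 20.6 to 45.65 on the other 11. Results that rest on SAM/P-8 CCH replicate 4 and SAM/P-8 control replicate 1 are also given without both of them. This alternative was chosen after seeing the data and keeps SAM/P-8 CCH replicate 1. With both left out, all 11 member calls described below except Apoe stayed past the threshold.

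3 of 30 tested members differed between the strains in one direction on both diets, against 7.57% of all genes: Gfap, Serpina3n and Ntsr2. The bases before their annotated starts are shown because these are the members whose strain difference was called on both diets. Each window runs from 250 bases before to 50 bases after the start of the RefSeq gene on GRCm38.p6, written 5′ to 3′ on the strand of the gene. Capitals mark TTCNNNGAA, the palindromic core bound by STAT factors, which reads the same on both strands and was the single motif searched. Gfap lies on the minus strand at chr11:102897151-102897450, Serpina3n on the plus strand at chr12:104406458-104406757 and Ntsr2 on the plus strand at chr12:16653220-16653519.
Gfap: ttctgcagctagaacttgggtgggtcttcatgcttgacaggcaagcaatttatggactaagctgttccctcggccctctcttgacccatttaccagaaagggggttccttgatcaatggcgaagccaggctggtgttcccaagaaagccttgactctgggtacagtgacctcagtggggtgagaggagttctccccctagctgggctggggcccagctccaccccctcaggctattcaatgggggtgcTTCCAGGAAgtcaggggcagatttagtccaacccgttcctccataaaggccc
Serpina3n: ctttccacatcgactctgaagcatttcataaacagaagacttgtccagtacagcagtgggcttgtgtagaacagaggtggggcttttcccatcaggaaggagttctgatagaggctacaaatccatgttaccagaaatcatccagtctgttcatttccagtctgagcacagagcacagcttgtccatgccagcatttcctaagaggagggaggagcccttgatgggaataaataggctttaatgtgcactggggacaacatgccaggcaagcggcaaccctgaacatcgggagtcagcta
Ntsr2: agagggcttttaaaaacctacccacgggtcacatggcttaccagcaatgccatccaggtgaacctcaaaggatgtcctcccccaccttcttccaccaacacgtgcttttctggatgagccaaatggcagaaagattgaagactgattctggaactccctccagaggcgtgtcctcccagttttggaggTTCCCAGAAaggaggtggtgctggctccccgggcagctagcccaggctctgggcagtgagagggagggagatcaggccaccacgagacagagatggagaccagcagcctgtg
The match in Gfap begins 2 bases before the start, and the match in Ntsr2 begins 62 bases before it. Serpina3n has no match in its window. A window was found for 25 of the 31 members, and 5 of these hold the motif: Acsbg1, Aldoc, Gfap, Ntsr2 and Slc1a3. These genes have 32 windows, of which 5, or 15.6%, hold it, against 8.3% of all 32851 windows of this length. A match describes these letters and is not a bound site.

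**Figure D1:**
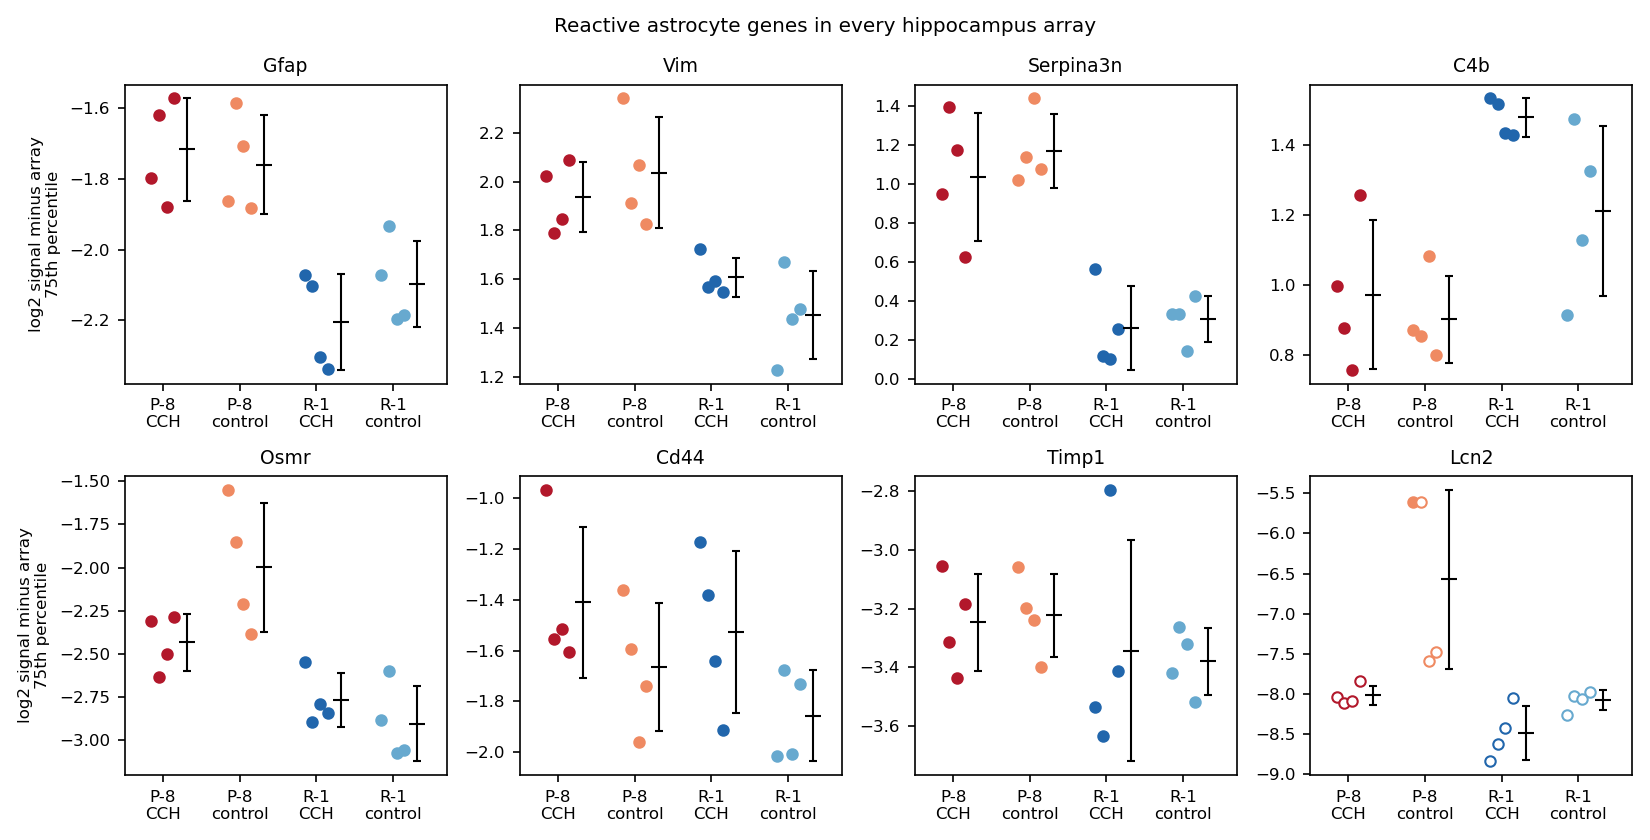
Level of the 8 reactive members on each array (y axis, log2 signal minus the 75th percentile of the array) in the 4 groups, with bars for the mean and SD of n = 4. Open circles are arrays without signal well above background. All SAM/P-8 points of Gfap, Vim and Serpina3n lie above all SAM/R-1 points, and Lcn2 is filled on 1 array.

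On the control diet, 6 of 30 tested members differed between SAM/P-8 and SAM/R-1, 4 of them higher and 2 lower in SAM/P-8. Over all 13458 genes tested, 12.8% were called, 6.17% higher and 6.66% lower. With quantile normalization 5 members were called higher and 1 lower: Apoe lost its call (adjusted p = 0.159) and Aldoc gained one (adjusted p = 0.0414). The 4 higher members, Osmr, Serpina3n, Vim and Gfap, are 4 of the 7 tested reactive members, whose median difference was 0.34, and both lower members, Ntsr2 and Apoe, are homeostatic. The median was -0.03 over the 23 homeostatic members and -0.01 over all genes. The 4 and 4 arrays did not overlap for 10 of 30 members, against 19% of all genes.

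On the CCH diet, 5 of 30 members differed, with 3 higher and 2 lower in SAM/P-8, against 12.7% of all genes called, 6.13% higher and 6.52% lower. With quantile normalization the split was 5 higher and 2 lower, with Gjb6 (adjusted p = 0.0349) and Htra1 (adjusted p = 0.0266) called as well. Gfap and Serpina3n were again higher and Ntsr2 again lower, Slc4a4 was higher, and C4b was lower. The median was 0.33 over the 7 reactive members, -0.06 over the homeostatic members and -0.02 over all genes. Called on both diets in one direction were 3 of 30 members, or 10%, against 7.57% of all genes. The arrays did not overlap for 8 of 30 members, against 20.6% of all genes. The strain comparisons share no arrays with each other.

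**Figure D2:**
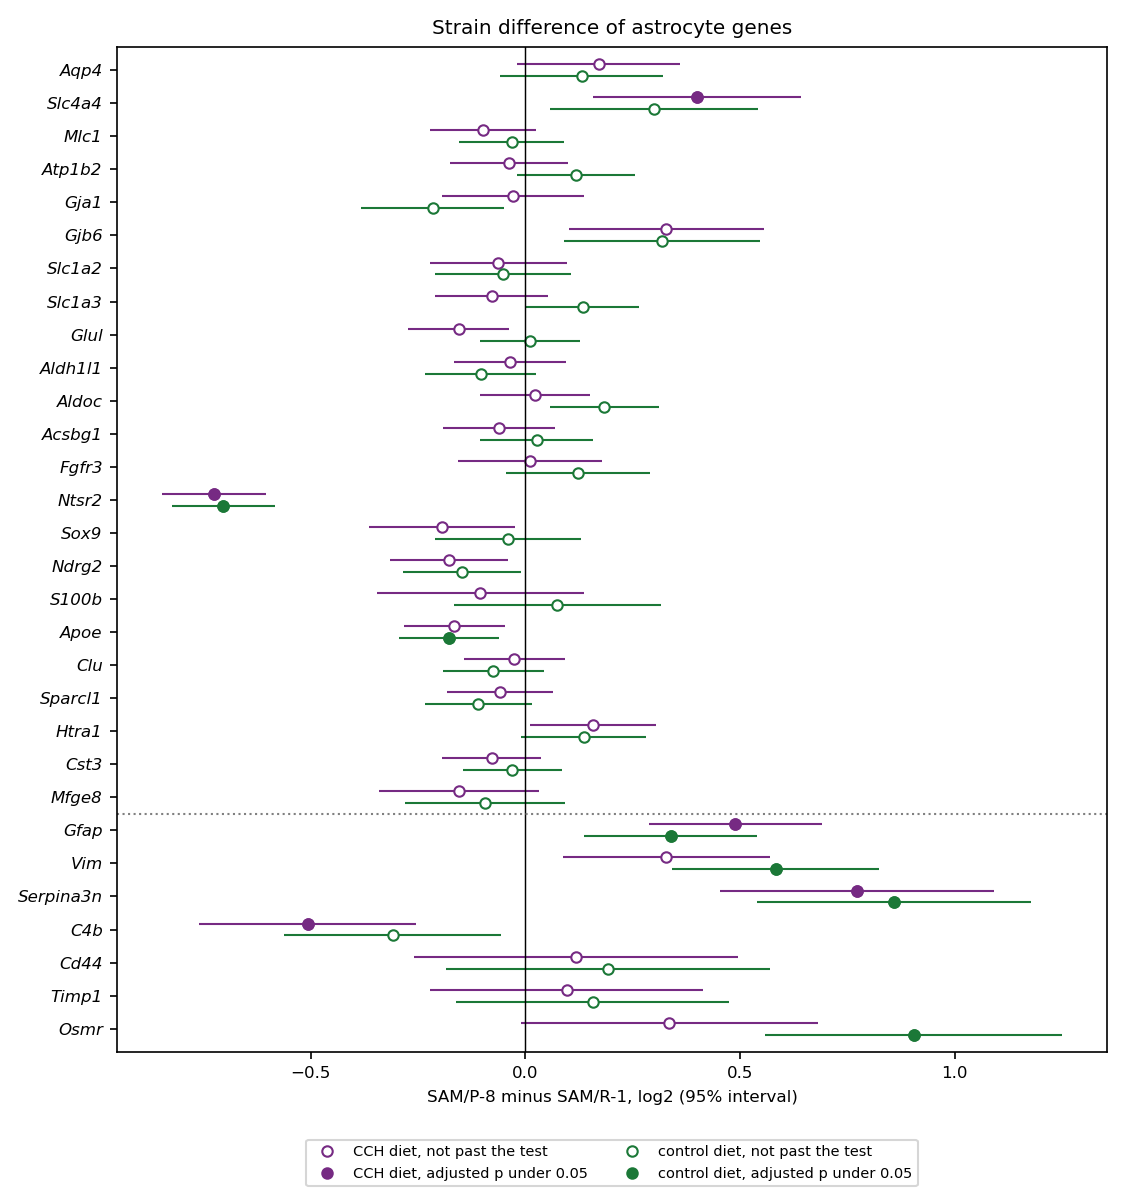
Strain difference (x axis, SAM/P-8 minus SAM/R-1, log2, with its 95% interval) of the 30 tested members on the CCH diet (purple) and the control diet (green), homeostatic members above the dotted line and reactive members under it. Filled points passed the test. Ntsr2 is the member farthest to the left on both diets, and Serpina3n is the farthest to the right on the CCH diet.

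Gfap encodes an intermediate filament protein of astrocytes that is known to rise when they become reactive. Its level was -1.80, -1.62, -1.88 and -1.57 in SAM/P-8 CCH, against -2.07, -2.10, -2.31 and -2.34 in SAM/R-1 CCH. Gfap had -1.86, -1.58, -1.71 and -1.88 in SAM/P-8 control, against -2.07, -1.93, -2.20 and -2.19 in SAM/R-1 control. All 8 SAM/P-8 arrays were above all 8 SAM/R-1 arrays. The difference was 0.49 ± 0.09 on the CCH diet, or 1.40-fold (limma, adjusted p = 0.00285). It was 0.34 ± 0.09 on the control diet, or 1.26-fold (limma, adjusted p = 0.0268). The control diet call was lost without replicate 2 of SAM/P-8 control (adjusted p = 0.0835) or 3 (0.0658) and without replicate 3 of SAM/R-1 control (0.0817) or 4 (0.0705), and on both diets with normexp background (adjusted p = 0.618 on the control diet and 0.476 on the CCH diet).

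Vim encodes vimentin, the filament protein of immature and reactive astrocytes and also of endothelial cells and fibroblasts. Its level on the control diet was 2.34, 1.91, 2.07 and 1.83 in SAM/P-8, against 1.23, 1.67, 1.44 and 1.48 in SAM/R-1. Vim had 2.02, 1.79, 1.85 and 2.09 in SAM/P-8 CCH, against 1.73, 1.57, 1.59 and 1.55 in SAM/R-1 CCH. The strains did not overlap on either diet. The difference was 0.58 ± 0.11 on the control diet (limma, adjusted p = 0.00252), and 0.33 ± 0.11 on the CCH diet, where it missed the threshold (adjusted p = 0.0687).

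Serpina3n encodes a secreted serine protease inhibitor, a strong marker of reactive astrocytes. It had a level of 1.02, 1.14, 1.44 and 1.08 in SAM/P-8 control, against 0.34, 0.34, 0.15 and 0.43 in SAM/R-1 control. Serpina3n had 0.95, 1.39, 1.17 and 0.63 in SAM/P-8 CCH, against 0.57, 0.12, 0.11 and 0.26 in SAM/R-1 CCH. The strains did not overlap on either diet, although SAM/P-8 CCH replicate 4 lay near SAM/R-1 CCH replicate 1. The difference was 0.86 ± 0.15, or 1.81-fold, on the control diet (limma, adjusted p = 0.00110) and 0.77 ± 0.15, or 1.71-fold, on the CCH diet (adjusted p = 0.00287). Without SAM/P-8 control replicate 1 and SAM/P-8 CCH replicate 4 it was 0.91 on each diet. Serpina3n belongs to a cluster of closely related genes, and signal that its probe takes from them was not measured.

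Osmr encodes the receptor subunit that binds oncostatin M together with gp130. Its control diet level was -1.55, -1.85, -2.21 and -2.38 in SAM/P-8, against -2.88, -2.60, -3.08 and -3.06 in SAM/R-1. SAM/P-8 was higher on all 4 arrays, with its replicates 1 and 2 the highest of all 16. The difference was 0.90 ± 0.16, or 1.87-fold (limma, adjusted p = 0.00137). Without SAM/P-8 control replicate 1 and SAM/P-8 CCH replicate 4 it was 0.75 (adjusted p = 0.00386). Osmr had -2.31, -2.63, -2.50 and -2.29 in SAM/P-8 CCH, against -2.54, -2.89, -2.79 and -2.84 in SAM/R-1 CCH. There the groups overlapped, and the difference was 0.34 ± 0.16 (adjusted p = 0.190). The strain by diet interaction of Osmr, -0.57 ± 0.23, did not pass the test (adjusted p = 0.802), so the strain differences on the 2 diets were not shown to differ. With normexp background the control diet call was lost (adjusted p = 0.104).

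C4b encodes complement component C4, a reactive gene that was lower in SAM/P-8. Its level on the CCH diet was 1.00, 0.88, 0.76 and 1.26 in SAM/P-8, against 1.53, 1.52, 1.43 and 1.43 in SAM/R-1. The groups did not overlap, and the difference was -0.51 ± 0.12 (limma, adjusted p = 0.0107), or 1.42-fold lower in SAM/P-8. C4b had 0.87, 0.85, 1.08 and 0.80 in SAM/P-8 control, against 0.91, 1.47, 1.13 and 1.33 in SAM/R-1 control. The difference of -0.31 ± 0.12 missed the threshold (adjusted p = 0.103), but passed it without replicate 1 of SAM/R-1 control, the lowest of its group (-0.41, adjusted p = 0.0294). With normexp background the CCH diet call was lost (adjusted p = 0.0725). The near-identical gene C4a has 1 probe on the array, which was not tested, and RNA of both genes may bind the C4b probe.

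The other reactive members were not called. Cd44, a receptor for hyaluronan on reactive astrocytes and immune cells, differed by 0.19 ± 0.18 on the control diet and 0.12 ± 0.18 on the CCH diet. Timp1, an inhibitor of matrix metalloproteases, differed by 0.16 ± 0.15 and 0.10 ± 0.15 in the same order. Lcn2, which encodes the iron-siderophore carrier lipocalin 2, was not tested, because its probe passed the background flag on 1 of 16 arrays. That array was SAM/P-8 control replicate 1, with a level of -5.61, and replicate 2 of the same group had -5.60 without passing that flag. The remaining 14 arrays lay between -8.84 and -7.48.

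Ntsr2 encodes a low-affinity neurotensin receptor that is highly enriched in astrocytes of the adult forebrain. It stood at 2.88, 3.00, 2.98 and 3.03 in SAM/P-8 control, against 3.67, 3.63, 3.73 and 3.67 in SAM/R-1 control. Ntsr2 had 2.99, 2.84, 2.89 and 3.03 in SAM/P-8 CCH, against 3.59, 3.76, 3.71 and 3.60 in SAM/R-1 CCH. All 8 SAM/P-8 arrays were below all 8 SAM/R-1 arrays, with a gap wider than the range within either strain. The difference was -0.70 ± 0.06 on the control diet (limma, adjusted p = 4.68e-07), or 1.63-fold lower, and -0.73 ± 0.06 on the CCH diet (adjusted p = 3.31e-07), or 1.65-fold lower. A second probe of Ntsr2 differed by -0.65 ± 0.08 and -0.66 ± 0.08 in the same order (adjusted p = 8.1e-05 for each). Both calls of the brighter probe held in all 17 alternatives run.

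Apoe encodes apolipoprotein E, the main lipid carrier that astrocytes secrete. Its level was 7.30, 7.40, 7.46 and 7.33 in SAM/P-8 control, against 7.48, 7.63, 7.63 and 7.47 in SAM/R-1 control. The groups did not overlap, with a small difference of -0.18 ± 0.05 (limma, adjusted p = 0.0433), or 1.13-fold lower. Apoe had 7.35, 7.37, 7.27 and 7.33 in SAM/P-8 CCH, against 7.51, 7.42, 7.54 and 7.51 in SAM/R-1 CCH, again without overlap, and differed by -0.17 ± 0.05 (adjusted p = 0.0595). The control diet call was lost in 11 of 17 alternatives, among them those without replicate 1 of SAM/P-8 control (adjusted p = 0.109), 2 (0.0640) or 4 (0.101) and without replicate 2 of SAM/R-1 control (0.119) or 3 (0.130).

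Of the genes for transport and junctions, Slc4a4 was the one called. It encodes the sodium bicarbonate cotransporter NBCe1, which astrocytes use to regulate pH. Its CCH diet level was -2.27, -2.29, -2.40 and -1.98 in SAM/P-8, against -2.49, -2.56, -2.69 and -2.79 in SAM/R-1. The groups did not overlap, and the difference was 0.40 ± 0.11 (limma, adjusted p = 0.0301), or 1.32-fold higher. The call was lost without replicate 1 of SAM/P-8 CCH (adjusted p = 0.0524) or 4 (0.0846), without replicate 3 of SAM/R-1 CCH (0.0773) or 4 (0.0895), with normexp background (0.724) and with the mean of its probes (0.673).

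The control diet level of Slc4a4 was -2.32, -2.81, -2.69 and -2.47 in SAM/P-8, against -2.85, -2.73, -3.01 and -2.91 in SAM/R-1. The groups overlapped, with a difference of 0.30 ± 0.11 (adjusted p = 0.0980) that passed without replicate 2 of SAM/P-8 control (adjusted p = 0.0463). Its probes disagreed. A second probe differed by 0.42 ± 0.12 on the CCH diet (adjusted p = 0.0380) and by 0.08 ± 0.12 on the control diet. The dimmest of its 3 probes had the opposite sign on the CCH diet, -0.56 ± 0.18 (adjusted p = 0.0540). On the control diet 0 of 4 SAM/P-8 arrays were well above background for that dimmest probe, and the bound is a decrease of at least 1.26-fold in SAM/P-8. The limma test there (adjusted p = 0.000775) is of the measured means, -6.42 in SAM/P-8 and -5.33 in SAM/R-1, and not of the bound. That probe passed the filter on dim probes only through the SAM/R-1 groups, so its call rests in part on the groups where it is high. The bound sets the mean of the SAM/R-1 arrays against the dimmest detected signal of each SAM/P-8 array, or the signal of the probe where that was higher.

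**Figure D3:**
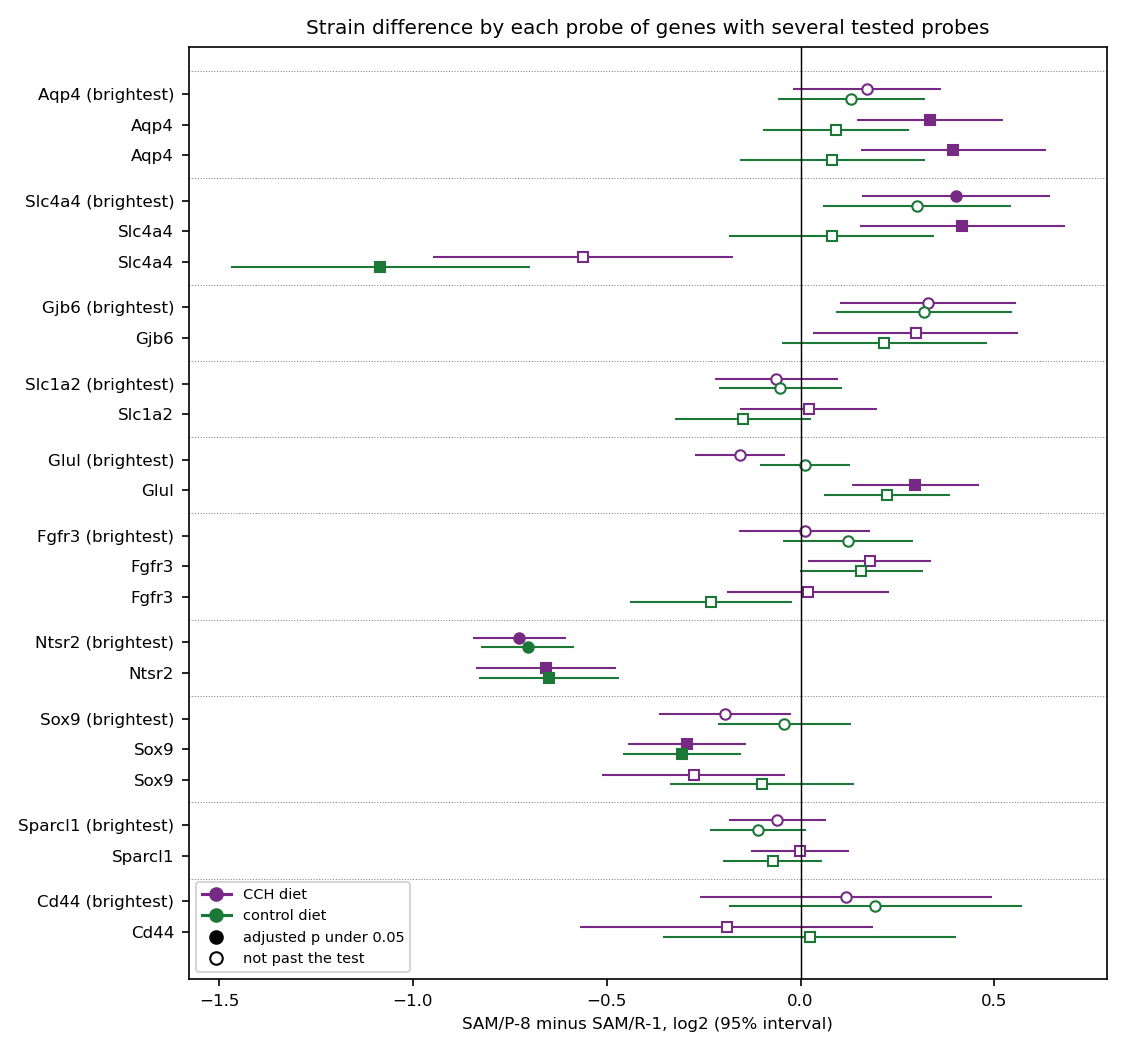
Strain difference (x axis, SAM/P-8 minus SAM/R-1, log2, with its 95% interval) of each tested probe of the 10 members with several, on the CCH diet (purple) and the control diet (green), ordered by brightness within a gene. Filled points passed the test. The probes of Ntsr2 lie together near -0.7, while those of Slc4a4 lie on both sides of 0.

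20 tested members have a single tested probe, Gfap, Vim, Serpina3n, Osmr, C4b and Apoe among them, and 10 have several. With 1 probe, a sequence variant of the strain at the probe and a true difference of level cannot be told apart. Aqp4, the water channel of astrocyte end-feet, differed by 0.17 ± 0.09 on the CCH diet in its brightest probe (adjusted p = 0.225), and by 0.33 ± 0.09 (adjusted p = 0.0215) and 0.39 ± 0.11 (adjusted p = 0.0302) in its dimmer probes. None of the Aqp4 probes passed on the control diet, with differences from 0.08 to 0.13. Glul encodes glutamine synthetase, which turns glutamate into glutamine. Its brightest probe differed on the CCH diet by -0.16 ± 0.05 (adjusted p = 0.0744), and its dimmer probe by 0.30 ± 0.08 (adjusted p = 0.0185), with opposite signs. Without replicate 1 of SAM/R-1 CCH the brightest probe passed (adjusted p = 0.0116). Sox9, the transcription factor that marks astrocyte nuclei, differed by -0.04 ± 0.08 on the control diet and -0.20 ± 0.08 on the CCH diet in its brightest probe. The second probe of Sox9 was called lower on both, at -0.31 ± 0.07 (adjusted p = 0.00910) and -0.29 ± 0.07 (adjusted p = 0.0133). Fgfr3, the growth factor receptor, had probes of both signs on the control diet, 0.12 ± 0.08 and -0.23 ± 0.10 in the brightest and the dimmest. Slc1a2 and Cd44 had probes of both signs on the CCH diet. None of the Fgfr3, Slc1a2 and Cd44 probes was called.

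The remaining homeostatic members did not pass the test in either strain comparison. Gjb6, the gap junction protein connexin 30, differed by 0.32 ± 0.11 on the control diet (adjusted p = 0.0619) and 0.33 ± 0.11 on the CCH diet (adjusted p = 0.0555). It passed without replicate 3 of SAM/P-8 control on the control diet (adjusted p = 0.0372) and without replicate 3 of SAM/R-1 CCH on the CCH diet (adjusted p = 0.0296). Gja1, connexin 43, the other main gap junction protein of astrocytes, had the opposite sign on the control diet, -0.22 ± 0.08 (adjusted p = 0.0823). Aldoc, the brain form of aldolase, differed by 0.18 ± 0.06 on the control diet (adjusted p = 0.0538) without overlap of the arrays, and passed without replicate 3 of SAM/P-8 control (adjusted p = 0.0489). Htra1, a secreted serine protease, differed by 0.16 ± 0.07 on the CCH diet (adjusted p = 0.145) and passed without replicate 3 of SAM/R-1 CCH (adjusted p = 0.0230). Ndrg2, a cytoplasmic protein enriched in astrocytes, differed by -0.18 ± 0.06 on the CCH diet (adjusted p = 0.0824).

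The glutamate transporters and several enzymes had small strain differences with intervals that mostly include 0. Slc1a2, which encodes GLT-1, differed by -0.05 ± 0.07 on the control diet and -0.06 ± 0.07 on the CCH diet. Slc1a3, which encodes GLAST, differed by 0.13 ± 0.06 and -0.08 ± 0.06 in the same order. The folate enzyme gene Aldh1l1 differed by -0.10 ± 0.06 and -0.04 ± 0.06, and Acsbg1, a very-long-chain acyl-CoA synthetase, by 0.03 ± 0.06 and -0.06 ± 0.06. The largest strain difference of Mlc1, a membrane protein of end-feet, was -0.10 ± 0.06 on the CCH diet. For Atp1b2, a beta subunit of the sodium pump, it was 0.12 ± 0.06 on the control diet. S100b, a calcium-binding protein of astrocytes that oligodendrocytes also make, differed by -0.10 ± 0.11 on the CCH diet and 0.07 ± 0.11 on the control diet. Among secreted products, Clu (clusterin, a lipoprotein-bound chaperone), Sparcl1 (hevin, which promotes synapse formation), Cst3 (cystatin C, a protease inhibitor) and Mfge8 (a bridge for the uptake of debris) lay between -0.15 and -0.03 on the CCH diet and between -0.11 and -0.03 on the control diet.

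**Figure D4:**
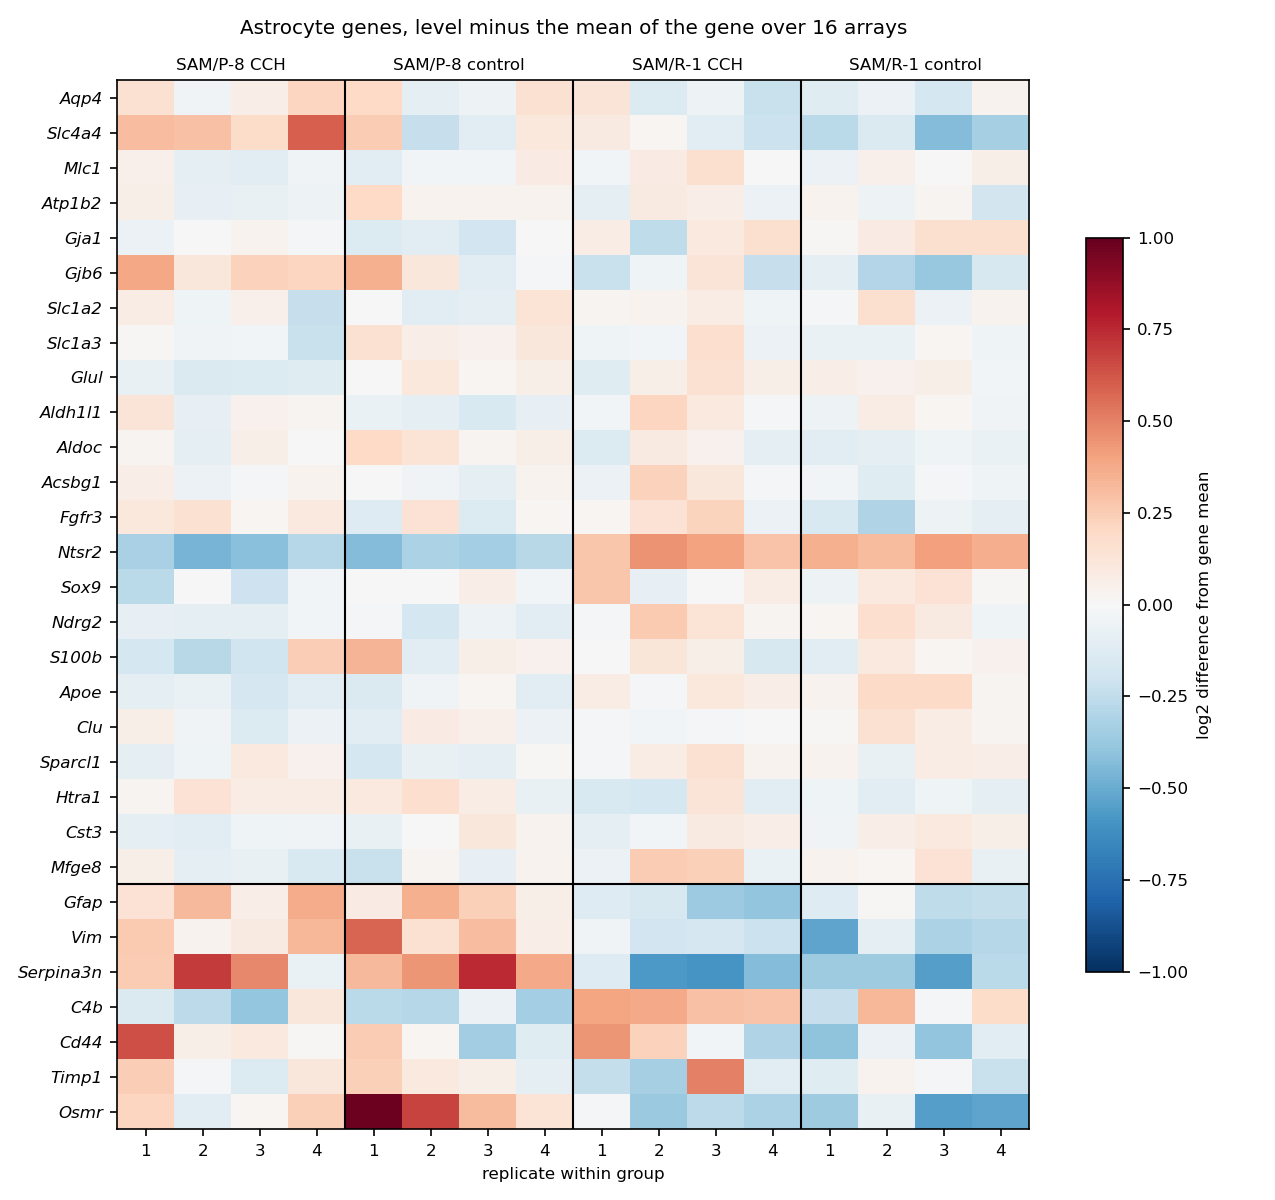
Level of each tested member (rows) on each of the 16 arrays (columns, by group and replicate) minus the mean of that gene over the arrays, in log2 units from -1 (blue) to 1 (red). The Ntsr2 row is blue in all 8 SAM/P-8 columns and red in all 8 SAM/R-1 columns, most homeostatic rows are pale, and the Osmr row is darkest in SAM/P-8 control replicate 1.

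CCH against the control diet changed no member past the threshold. In SAM/P-8, limma called 0 of 30 members, against 0.788% of all genes, and 5 members had an unadjusted p under 0.05, against 18.5% of all genes. In SAM/R-1, limma called 0 of 30, against 0.104% of all genes, and 2 had an unadjusted p under 0.05, against 11.2% of all genes. The median difference of the homeostatic members was -0.02 in SAM/P-8 and 0.04 in SAM/R-1, and that of the reactive members -0.02 and 0.14. The diet comparisons share their arrays with the strain comparisons, so their values are not separate evidence.

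In SAM/P-8 the 5 members were Slc4a4, Glul, Slc1a3, Aldh1l1 and Osmr. Glul was 5.57, 5.50, 5.51 and 5.53 in SAM/P-8 CCH, against 5.65, 5.75, 5.67 and 5.70 in SAM/P-8 control. Slc1a3 was 4.03, 3.98, 3.99 and 3.80 in SAM/P-8 CCH, against 4.17, 4.08, 4.06 and 4.13 in SAM/P-8 control. For both, the CCH arrays lay below all control arrays, and each differed by -0.16 (limma, adjusted p = 0.137 for Glul and 0.182 for Slc1a3). The dimmer probe of Glul had the opposite sign, 0.24 ± 0.08 (adjusted p = 0.123), with overlap of the arrays. Among all genes, 9.63% had arrays without overlap in this comparison, against 2 of 30 members. Slc4a4 differed by 0.34 ± 0.11 (adjusted p = 0.136), Osmr by -0.43 ± 0.16 (adjusted p = 0.174) and Aldh1l1 by 0.13 ± 0.06 (adjusted p = 0.254).

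In SAM/R-1 the 2 members were Fgfr3, at 0.23 ± 0.08 (adjusted p = 0.304), and C4b, at 0.27 ± 0.12 (adjusted p = 0.432). C4b was 1.53, 1.52, 1.43 and 1.43 in SAM/R-1 CCH, against 0.91, 1.47, 1.13 and 1.33 in SAM/R-1 control, with overlap. Clu was the member whose SAM/R-1 arrays did not overlap, at -0.08 ± 0.06, and 9.89% of all genes had such arrays. Gfap differed between diets by 0.04 ± 0.09 in SAM/P-8 and -0.11 ± 0.09 in SAM/R-1, Serpina3n by -0.13 ± 0.15 and -0.05 ± 0.15, and Ntsr2 by -0.03 ± 0.06 and -0.01 ± 0.06. The diet difference of Ntsr2 had a 95% interval of -0.15 to 0.09 in SAM/P-8, and in SAM/R-1 of -0.13 to 0.11. The second probe of Ntsr2 had the opposite sign, at 0.07 ± 0.08 in each strain. A dimmer probe of Slc1a2 differed by 0.18 ± 0.08 in SAM/P-8 (adjusted p = 0.258), where its brightest probe was at -0.02.

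The strain by diet interaction called 0 of 30 members with limma, against 0.134% of all genes. Osmr, Slc1a3 and Glul had an unadjusted p under 0.05, against 4.8% of all genes. Slc1a3 had an interaction of -0.21 ± 0.09 (adjusted p = 0.834) and Glul of -0.17 ± 0.08 (adjusted p = 0.884), while the dimmer Glul probe was at 0.07 ± 0.11.

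**Figure D5:**
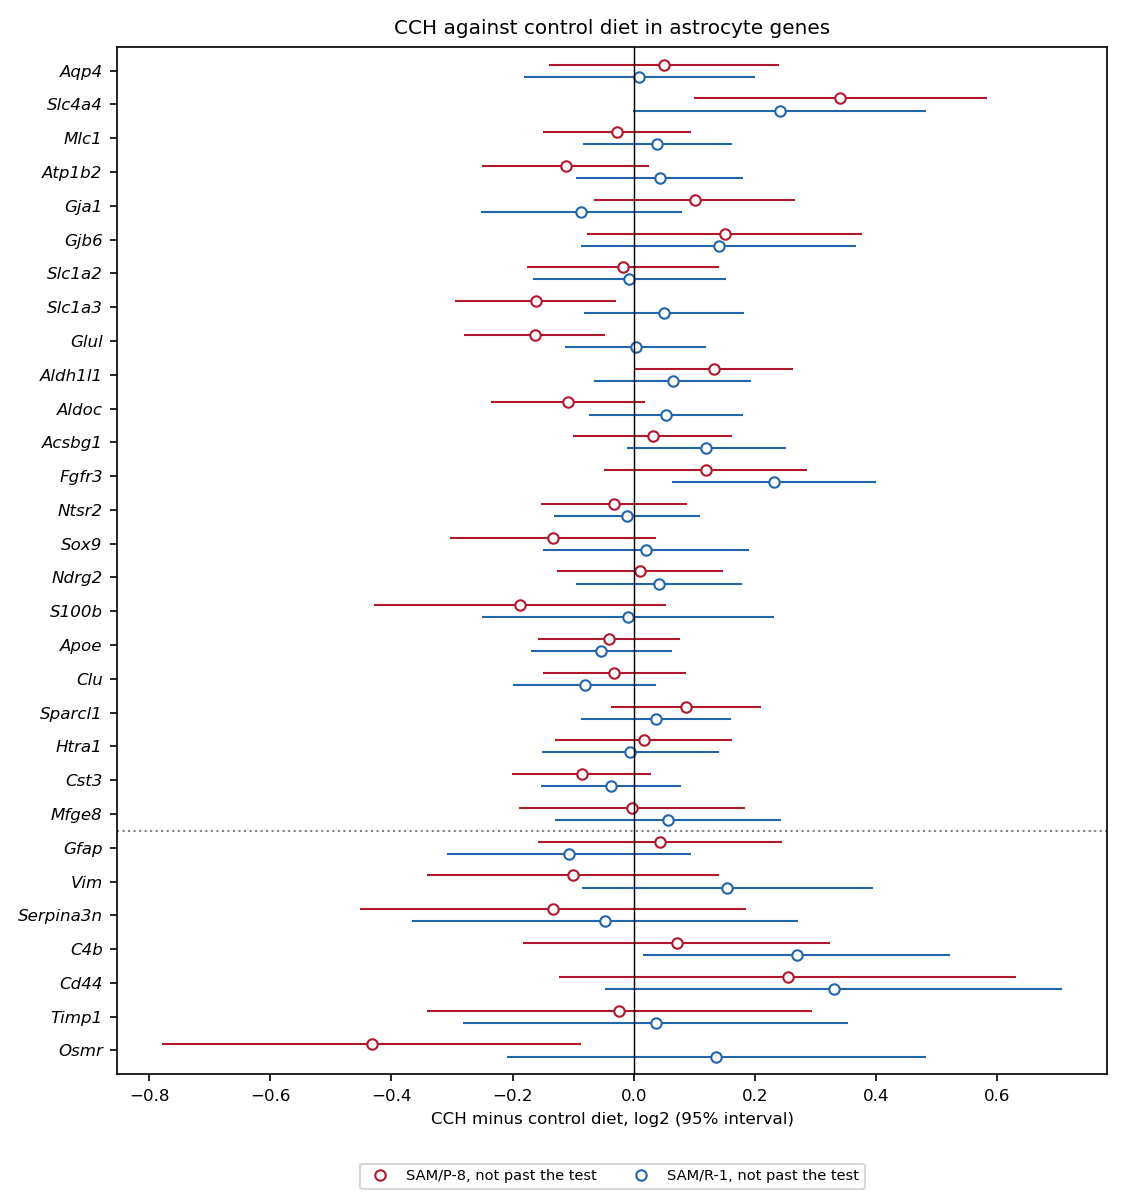
Diet difference (x axis, CCH minus control diet, log2, with its 95% interval) of the 30 tested members in SAM/P-8 (red) and SAM/R-1 (blue), homeostatic members above the dotted line and reactive members under it. All points are open because none passed the test, and Osmr in SAM/P-8, at -0.43, is the farthest to the left.

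Markers of other cell types differed between the strains beside the astrocyte genes. For comparison, 6.17% of all genes were called higher in SAM/P-8 on the control diet and 6.13% on the CCH diet. Of 12 endothelial and pericyte markers, 11 were higher in SAM/P-8 on the control diet and 5 on the CCH diet, with medians of 0.56 and 0.37, and none was lower. Their summed linear level was 20.92 to 27.41 in SAM/P-8 CCH, against 17.72 to 20.49 in SAM/R-1 CCH. The control diet sums were 23.08 to 29.84 in SAM/P-8, against 15.38 to 18.40 in SAM/R-1. The ranges of the sums did not overlap on either diet, and each of the 12 had signal well above background on every array. Of 12 meningeal and fibroblast markers, 2 were higher on the CCH diet, where sums were 41.67 to 82.26 in SAM/P-8 and 43.73 to 62.12 in SAM/R-1, and 1 on the control diet, where they were 29.68 to 91.45 in SAM/P-8 and 37.72 to 60.34 in SAM/R-1. Their median difference was 0.68 on the CCH diet, with 11 of 12 positive, and 0.66 on the control diet, with 10 of 12 positive. An unadjusted p under 0.05 was reached by 8 of the 12 on the CCH diet and 6 on the control diet. Of all 13458 genes, 3674 and 3555 reached it in the same order. Of 12 microglial markers, 4 were higher on the CCH diet and 1 on the control diet. The 1 of 12 called on the control diet in the meningeal and in the microglial list is close to the 6.17% of all genes. None of the neuronal, oligodendrocyte, choroid plexus and striatal markers was called in either strain comparison. The part of these cells in the strain differences of the astrocyte members, such as Vim, was not tested.

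Among 25 further tested genes enriched in astrocytes, 2 were lower in SAM/P-8 on each diet and none was higher, with medians of -0.04 on both. These 2 of 25 are close to the share of all genes called lower, 6.66% on the control diet and 6.52% on the CCH diet. Hes5, a Notch target that keeps neural progenitors undifferentiated, was lower in SAM/P-8, at -0.81 ± 0.18 on the control diet (limma, adjusted p = 0.00667) and -0.66 ± 0.18 on the CCH diet (adjusted p = 0.0257). Rorb, a nuclear receptor, was lower on the control diet, at -0.56 ± 0.14 (adjusted p = 0.0143), while its other probe was at -0.08. Nfia, a transcription factor of gliogenesis, was lower on the CCH diet, at -0.28 ± 0.08 (adjusted p = 0.0236).

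Among 26 further tested genes of reactive astrocytes, 9 were higher in SAM/P-8 on the control diet and 8 on the CCH diet, with none lower and medians of 0.30 and 0.25. Of all genes, 6.17% were called higher on the control diet and 6.13% on the CCH diet. Many of these genes are also induced by interferon in other cells. Iigp1, an interferon-induced GTPase, was higher by 1.38 ± 0.32 on the control diet (limma, adjusted p = 0.00862) and 1.45 ± 0.32 on the CCH diet (adjusted p = 0.00691). Psmb8, a subunit of the immunoproteasome, was higher by 0.80 ± 0.10 (adjusted p = 4.88e-05) and 0.77 ± 0.10 (adjusted p = 7.94e-05). Hspb1, a small heat shock protein, was higher on the control diet by 1.03 ± 0.32 (adjusted p = 0.0456). Cp, the copper carrier ceruloplasmin, was higher there by 0.83 ± 0.25 (adjusted p = 0.0397), with overlap of the arrays. Cxcl10, a chemokine, was higher on the CCH diet by 1.74 ± 0.55 (adjusted p = 0.0481). It had an SD of 1.42 in SAM/P-8 CCH and was well above background on 15 of 16 arrays. H2-T23, a nonclassical MHC gene, was higher on the CCH diet by 0.78 ± 0.12 (adjusted p = 0.00036). Psmb8 has a second tested probe, higher by 1.06 on the control diet and 0.91 on the CCH diet. Iigp1, Hspb1, Cp, Cxcl10 and H2-T23 have a single tested probe. For them a sequence variant at the probe and a true difference of level cannot be told apart. The same limit holds for Hes5 and, below, for Il6st.

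Of 13 tested genes of the gp130-STAT3 pathway, which include Osmr, 3 were higher in SAM/P-8 on the control diet and 1 on the CCH diet, and none was lower. The 1 of 13 called on the CCH diet is close to the 6.13% of all genes called higher there, and on the control diet that share was 6.17%. Il6st, which encodes gp130, was higher by 0.18 ± 0.06 on the control diet (limma, adjusted p = 0.0421). Tyk2, a kinase that docks on gp130 and interferon receptors, was at least 64.4-fold higher on the control diet and at least 94.7-fold on the CCH diet, and no SAM/R-1 array was well above background for its single probe. Tyk2 was the 1 gene called on the CCH diet and was among the 3 on the control diet. That probe passed the filter on dim probes only through the SAM/P-8 groups, so these counts rest in part on the groups where it is high. None of these 3 lists had a gene past the threshold in a diet comparison or the interaction. The smallest p of each list in SAM/P-8 belonged to Rorb (0.45 ± 0.14, adjusted p = 0.116), S1pr3, a lipid receptor (-0.23 ± 0.07, adjusted p = 0.116), and Osmr (adjusted p = 0.174). In SAM/R-1 it belonged to Plpp3, a lipid phosphatase (0.12 ± 0.05, adjusted p = 0.436), and Hspb1 (0.89 ± 0.32, adjusted p = 0.329), and in the pathway list to Tyk2, for which no array of either SAM/R-1 group was well above background. In the interaction it belonged to Nfia (-0.25 ± 0.11, adjusted p = 0.852), Clcf1, a cytokine that signals through gp130 (0.69 ± 0.37, adjusted p = 0.921), and Osmr (adjusted p = 0.802).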

How the data were processed

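RNA of the hippocampus was measured on 16 single-colour arrays. Per the file headers, Agilent Feature Extraction 9.5.3.1 produced the deposited intensity of each spot, subtracting background and removing spatial trends without scaling between arrays. The deposited files also give the median intensity of spot and local background, and flags of another kind for spots well above background, saturated or non-uniform, per the file headers. The authors' deposited value table holds log2 values centred on the median of each probe. Its columns have medians from -0.038 to 0.036, and they correlated at 0.9999 or more with the centred scanner values. Its scaling between arrays is not given in the sources used here.

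Log2 of the processed intensity minus the 75th percentile of the non-control spots of the array was used, without a pseudocount. Of 41174 probes, 29009 were kept, having 4 of 4 arrays well above background in 1 or more groups. Symbols came from the RefSeq accession of a probe, and the brightest kept probe stood for a gene. Spots with the non-uniform flag were left out, which left Mchr1 without a test, and non-overlap was read for genes with no such spot in either group. Promoter windows came from RefSeq on GRCm38.p6. Group means were fitted over the 16 arrays with limma 3.58.1 (R 4.3.3), with Benjamini-Hochberg adjustment over the kept probes, and the fit was tested on simulated data. Per array, 28920 to 33333 of 43379 non-control spots passed that flag, and precision is limited by the number of arrays. Groups came from the labels. Members and lists were chosen with earlier results of these data known. All members are named, called members with all their values. Of each other list up to 4 called genes were named per strain comparison, and per diet comparison and interaction the gene with the smallest p, where none was called. Alternatives were normexp background (offset 50), quantile normalization, the authors' table, the filter on dim probes, the mean of the probes, the groups in the fit, the replicate block and leaving out arrays.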

Additional observations from a re-analysis of the deposited data

Results flagged for a closer look

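Of 124 sets of a member and a group checked, 3 held an array farther from the other 3 than Dixon's 95% limit allows, where chance gives about 1 in 20. Atp1b2 was 1.60 on SAM/P-8 control replicate 1, where its group otherwise lay between 1.44 and 1.45. Slc1a3 was 4.19 on SAM/R-1 CCH replicate 3, against 3.95 to 3.99. Cd44 was -0.97 on SAM/P-8 CCH replicate 1, against -1.61 to -1.51.

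Lcn2, whose probe was left out of the tests, was well above background on 1 array, SAM/P-8 control replicate 1, with a level of -5.61. The other 15 arrays, from -8.84 to -5.60, were not well above background.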

How the results depend on the processing

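For single members, 2692 of 2730 comparisons of an alternative with the reported value stayed on the same side of the threshold. A call was lost in 25 and gained in 13, and none of the called values reversed. Members without a call did not all keep their direction. The homeostatic median of the diet difference in SAM/P-8 went from -0.0181 to 0.0663 with quantile normalization. Ntsr2 and Serpina3n on both diets and Vim on the control diet kept their calls in all 17 alternatives, and adjusted p for Vim reached 0.0362.

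With normexp background, 3 of 30 members were called on the control diet and 2 of 30 on the CCH diet, while calls over all probes fell to 962 from 4004 and to 840 from 3909. Ntsr2 and Serpina3n were called there on both diets. The same setting gave a median on the CCH diet of 0.000152 for the homeostatic and 0.0956 for the reactive members, and a homeostatic diet difference of -0.0727 in SAM/P-8 and -0.0492 in SAM/R-1. Quantile normalization gave a homeostatic median of 0.0663 for the diet difference in SAM/P-8 and 0.0332 for the interaction. Without the filter on dim probes, which adds Lcn2, the reactive median on the control diet was 0.461. For all these shifts the cause was not tested.

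Leaving out each array in turn gave 4 to 7 calls on the control diet and 4 to 6 on the CCH diet, and a reactive median of the interaction from -0.207 to -0.0804. Without SAM/P-8 control replicate 1 and SAM/P-8 CCH replicate 4 together, chosen after seeing the data, 5 members were called on each diet and the homeostatic median of the interaction was -0.0827.

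Of 24 pairs of same-numbered arrays across groups, 6 correlated over 0.1 in their deviations from the group mean, with r from -0.249 to 0.303. This range lay within that of the 72 pairs with different numbers, -0.3365 to 0.369. The number equals the position on the slide. With a replicate block, 5 members were called on each diet, and Apoe on the control diet had adjusted p = 0.0589. A slide block could not be fitted, because each slide holds 1 group. Dim probes such as those of Lcn2 are limited by signal over background.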

Other observations

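Genes next to the 3 members called on both diets were looked at after the values were seen. Among the 5 tested genes on each side, 1 of 10 beside Ntsr2, 3 of 10 beside Serpina3n and 0 of 10 beside Gfap were called between the strains on the control diet, against 12.8% of all genes. On the CCH diet the counts were 0, 0 and 1 of 10, against 12.7% of all genes. None of these 30 neighbours was called in the same direction on both diets, against 7.57% of all genes. Serpina3m, the closest tested neighbour before Serpina3n and a member of the same protease inhibitor cluster, had the opposite sign on the control diet, at -0.45 (limma, adjusted p = 0.0174), and was at 0.03 on the CCH diet (adjusted p = 0.896).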
